A study of Homo sapiens with 16 samples.

Results

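Genes of amino acid synthesis and amino acid transport, together with related targets of the transcription factor ATF4, were followed in lung carcinoma cells exposed to the compound MS78. The set holds 33 named genes, chosen by name for their roles in serine, one-carbon, asparagine, proline and alanine synthesis, transsulfuration, amino acid uptake or the ATF4 programme. These are 33 of the 56865 genes in the tables, and all 33 were among the 15687 genes that passed the filter on low counts and were tested. Under MS78, 20 of the 33 genes fell and 8 rose in cells expressing the p53 mutant Y220C, where 23.6% of all genes tested fell and 24.9% rose. In cells without p53, 28 fell and 1 rose, where 13.3% of all genes fell and 14.8% rose.

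RNA selected for poly(A) tails was sequenced from NCI-H1299 cells, which derive from a human lung carcinoma of the non-small cell kind, in 4 groups of 4 libraries. The Y220C MS78 group was NCI-H1299 with the p53 mutant Y220C stably expressed and MS78 at 10 µM for 24 h, and the Y220C DMSO group was the same line with the vehicle DMSO. The Null MS78 group was the p53-null NCI-H1299 line with MS78 at 10 µM for 24 h, and the Null DMSO group was that line with DMSO. Both lines grew in RPMI with serum and antibiotics, and the medium of the Y220C line also held G418 at 500 µg/mL, so that line, transgene and G418 cannot be told apart. The sources used here do not give the promoter of the transgene or say whether the Y220C line is 1 clone. MS78 is known as a bifunctional compound that recruits the acetyltransferases p300 and CBP to the Y220C protein, a target that the p53-null line lacks. Whether replicates were separate cultures is not stated in the labels, and the p-values then reflect only the spread of these libraries, which may be technical. In bulk RNA, fewer cells of a kind and less RNA per cell cannot be told apart.

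When amino acids run short, or when other stresses act, cells phosphorylate the initiation factor eIF2, which lowers protein synthesis overall and raises translation of ATF4. ATF4 pairs with C/EBP proteins and binds composite sites, the C/EBP-ATF response elements, near the start sites of genes for amino acid synthesis, uptake and tRNA charging. Proliferating lung carcinoma cells use these genes to make serine and one-carbon units for nucleotides and to import cystine for glutathione.

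Libraries held 20.3 M to 27.7 M estimated reads. The chi-square per gene between replicates was 2.51 to 10.8, above sampling noise for every pair. The cells expressed the cytoskeletal genes KRT8 (166 to 350 CPM), KRT18 (287 to 495 CPM) and VIM (3530 to 5610 CPM), where CPM scales a gene's reads to the normalised library total. EPCAM (0.108 to 1.64 CPM) and the lung lineage factor NKX2-1 (0 to 0.344 CPM) were near 0, and SFTPC had reads in 1 library only. In 8 libraries, which are replicates 2, 3 and 4 of either MS78 group and replicate 1 of either DMSO group, leukocyte reads were found. There the leukocyte phosphatase gene PTPRC had 55 to 99 reads, against 0 or 1 in each other library. The 18 leukocyte markers summed to 56 to 119 CPM in these 8 and to 2.36 to 11 CPM in the rest, with MS4A1 at 0 in 15 libraries. By group these sums were 2.36 to 119 CPM in Y220C MS78, 3.62 to 56 CPM in Y220C DMSO, 7.78 to 111 CPM in Null MS78 and 10.1 to 61.8 CPM in Null DMSO. Because 3 of 4 MS78 libraries and 1 of 4 DMSO libraries of each line held these reads, results are also given separately for these 8 libraries and for the other 8. In either set 1 treatment is represented by a single library per line. The part of the leukocyte reads in any result was not tested beyond these sets.

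The promoters of these genes were examined for the letters that ATF4 and C/EBP proteins are known to bind, because the genes were chosen as ATF4-linked. RefSeq promoter windows (GRCh38.p14, 250 bases before to 50 bases after a start site) were at hand for 26 of the 33 genes, in 42 windows. The element was searched as TGATGNAA on both strands, where its other strand reads TTNCATCA. It occurred in 11 windows of 9 genes, and in 3.62% of all 35116 windows and 4.46% of all 27305 genes of the table. The 9 sites are printed below in 30 bases each, on the strand of the gene, 5′ to 3′, with the match in capitals, since they let the responses be read beside the sequence. The matches to the other strand are those of SLC3A2 and SLC1A4.
ASNS (chr7:97872458-97872487, minus strand): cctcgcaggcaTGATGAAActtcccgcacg
CEBPG (chr19:33374060-33374089, plus strand): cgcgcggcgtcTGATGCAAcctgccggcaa
JDP2 (chr14:75427995-75428024, plus strand): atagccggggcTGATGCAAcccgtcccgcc
MTHFD1L (chr6:150866346-150866375, plus strand): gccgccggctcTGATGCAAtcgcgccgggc
SLC1A5 (chr19:46784893-46784922, minus strand): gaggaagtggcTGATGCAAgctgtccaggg
SLC38A1 (chr12:46266502-46266531, minus strand): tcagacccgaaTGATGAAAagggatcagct
SLC7A1 (chr13:29595663-29595692, minus strand): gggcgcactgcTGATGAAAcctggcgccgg
SLC1A4 (chr2:64989381-64989410, plus strand): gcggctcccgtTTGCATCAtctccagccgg
SLC3A2 (chr11:62881719-62881748, plus strand): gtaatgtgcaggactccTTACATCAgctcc

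Counted from the start site, the first base of the match lay at -129, -90 or 25 in MTHFD1L, depending on which of its 3 windows was used. It lay at -97 in SLC1A5, -68 in ASNS, -42 in CEBPG, -16 in JDP2, -7 in SLC1A4, -4 in SLC38A1, 8 in SLC7A1 and 38 in SLC3A2. Under MS78, 3 of these 9 genes fell and 2 rose in Y220C cells (median log2 fold change -0.05), while 11 fell and 6 rose of the 17 genes whose windows had no match (median -0.33). Of all genes tested 23.6% fell and 24.9% rose there, and the counts among the 9 are near these shares. In p53-null cells all 9 fell (median -0.71), as did 12 of the 17 (median -0.47), against 13.3% of all genes tested. The response was higher in Y220C than in p53-null cells for 8 of the 9 and for 11 of the 17, and for 14.4% of all genes tested. Responses are compared with their sign here and below, so a smaller fall counts as higher. A match is a string of letters in these windows, and no binding was measured.

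In Y220C cells 20 of the 33 genes fell and 8 rose under MS78, against a background of 23.6% of genes called lower and 24.9% called higher, at an adjusted p of 0.05 in edgeR's quasi-likelihood test. The 8 that rose were ALDH18A1, CTH, SLC3A2, SLC7A6, SLC38A1, SLC38A2, VLDLR and KLHL24. Their number is near the 24.9% of all genes and is not read as a result about the set. The median of the 33 was -0.26, and that of all genes was -0.01. Among the libraries with PTPRC reads 21 of the 28 calls held and among those without 15 held, with no call in the opposite direction in either set.

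In p53-null cells MS78 lowered 28 of the 33 genes and raised 1, KLHL24. The background was 13.3% of all genes tested called lower and 14.8% called higher. The median log2 fold change of the 33 genes was -0.60, and that of all genes tested was 0.01. CTH, SLC7A6, SLC38A2 and VLDLR did not pass. All 29 calls held among the 8 libraries with PTPRC reads, and 23 held among the 8 without.

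The responses differed between the lines for 25 of the 33 genes. The Y220C response, taken with its sign, was the higher for 23 genes and the lower for DDIT4 and EIF4EBP1, against 14.4% and 12.4% of all genes tested. The median difference of the 33 genes was 0.34 on the log2 scale, and that of all genes was -0.02. Among the libraries with PTPRC reads 21 of these 25 calls held, and 10 held in the rest. The 10 that held in both sets were ASNS, PSAT1, ALDH18A1, SLC7A11, SLC3A2, SLC1A5, SLC1A4, SLC38A2, STC2 and CEBPG.

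**Figure D1:**
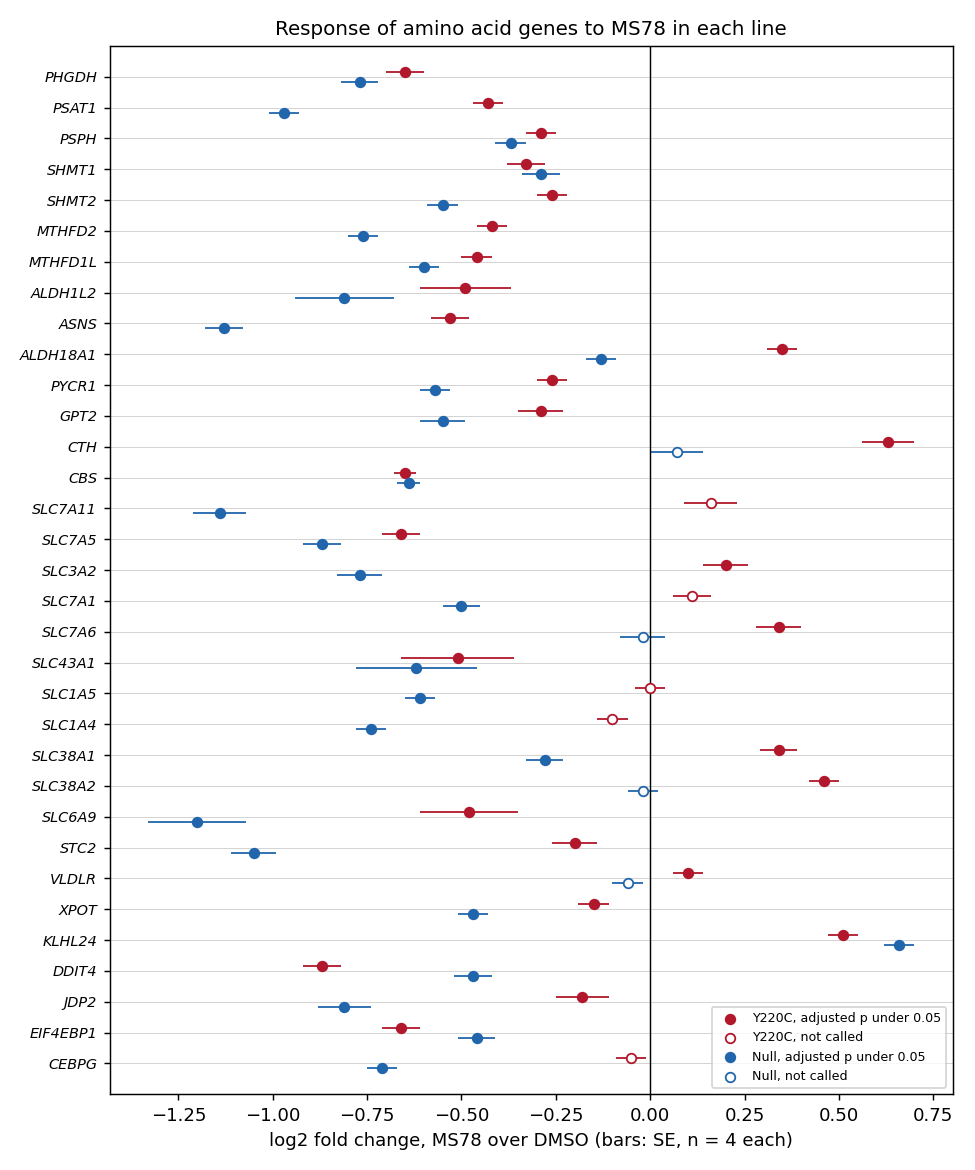
Response of the 33 genes to MS78, as the log2 fold change of MS78 over DMSO (x axis) for each gene (y axis, by role), with Y220C cells in red and p53-null cells in blue and bars for the SE (n = 4 libraries each). Filled points passed an adjusted p of 0.05. Most blue points lie left of 0 and left of the red point of the same gene, as for SLC7A11 at 0.16 in Y220C and -1.14 in p53-null cells.

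Serine synthesis begins with PHGDH, which oxidises a glycolytic intermediate, goes on with the aminotransferase PSAT1 and ends with the phosphatase PSPH. All 3 fell under MS78 in both lines. PSAT1 (ENSG00000135069, chromosome 9, 78297143 to 78330093, GRCh38) had 489, 478, 500.1 and 458 CPM in Y220C MS78 libraries, against 666, 647, 646 and 636 CPM in Y220C DMSO libraries. It had 298, 264, 277 and 282 CPM in Null MS78 libraries, against 539, 567, 533 and 551 CPM in Null DMSO libraries. In each line every MS78 library lay below every DMSO library. On the log2 scale the fold change was -0.43 (SE 0.04, adjusted p = 6.5e-09) in Y220C cells and -0.97 (SE 0.04, adjusted p = 5.51e-14) in p53-null cells, and these differed by 0.54 (SE 0.05, adjusted p = 2.67e-07).

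PHGDH (ENSG00000092621, chromosome 1, 119648411 to 119744226) had 210.3, 196, 203 and 199.7 CPM in Y220C MS78 libraries, against 319, 348, 305 and 298 CPM in Y220C DMSO libraries. It had 131, 118, 122 and 126 CPM in Null MS78 libraries, against 216, 232, 203 and 200.1 CPM in Null DMSO libraries. The groups did not overlap in either line. Its log2 fold changes were -0.65 (SE 0.05) in Y220C and -0.77 (SE 0.05) in p53-null cells, and the difference of 0.12 (SE 0.07) did not pass the threshold (adjusted p = 0.23). PSPH fell by less, at -0.29 in Y220C and -0.37 in p53-null cells (SE 0.04 each), with a difference of 0.08 (SE 0.06, adjusted p = 0.377). Copies of PSPH sequence exist elsewhere in the genome, so its values are uncertain.

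One-carbon enzymes carry the hydroxymethyl group of serine into the folate cycle. SHMT2 is the mitochondrial and SHMT1 the cytosolic serine hydroxymethyltransferase. MTHFD2 and MTHFD1L lead from methylene-folate to formate in mitochondria, and ALDH1L2 oxidises formyl-folate there. All 5 fell in both lines. MTHFD2 had 341, 332, 349 and 334 CPM in Y220C MS78, against 469, 457, 454 and 429 CPM in Y220C DMSO. It had 256, 222, 234 and 237 CPM in Null MS78, against 399, 421, 377 and 406 CPM in Null DMSO. No library of an MS78 group reached its DMSO group. The log2 fold change was -0.42 (SE 0.04) in Y220C and -0.76 (SE 0.04) in p53-null cells, a difference of 0.34 (SE 0.06, adjusted p = 0.000307).

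SHMT2 averaged 254 ± 4.2 CPM in Y220C MS78 and 304 ± 13 CPM in Y220C DMSO (SD, n = 4 each). It averaged 153 ± 1.4 CPM in Null MS78 and 224 ± 12 CPM in Null DMSO. Its log2 fold changes of -0.26 and -0.55 (SE 0.04 each) differed by 0.29 (SE 0.05, adjusted p = 0.000535). MTHFD1L fell by 0.46 in Y220C and by 0.60 in p53-null cells on the log2 scale. Its difference of 0.13 (adjusted p = 0.0928) passed the threshold without Null DMSO replicate 3 (0.16, adjusted p = 0.0394). SHMT1 and ALDH1L2 differed in their responses by -0.05 (SE 0.07, adjusted p = 0.666) and 0.32 (SE 0.18, adjusted p = 0.197). ALDH1L2 had 21.7, 25.5, 27.1 and 22.3 CPM in Y220C MS78, against 35.1, 26.6, 34.8 and 39.2 CPM in Y220C DMSO, where 1 MS78 library lay above 1 DMSO library.

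ASNS, asparagine synthetase, moves the amide nitrogen of glutamine to aspartate. It was the most abundant of the 33 genes per length in all 4 groups, at 628 ± 8.8 TPM in Y220C MS78, 902 ± 40 TPM in Y220C DMSO, 278 ± 21 TPM in Null MS78 and 623 ± 38 TPM in Null DMSO, although SLC38A2 at 271 ± 6.2 TPM lay within that spread in Null MS78. ASNS (ENSG00000070669, chromosome 7, 97852118 to 97872542, minus strand) had 868, 840.2, 861 and 795 CPM in Y220C MS78 libraries, against 1244, 1184, 1192 and 1231 CPM in Y220C DMSO libraries. It had 412, 344, 381 and 351 CPM in Null MS78 libraries, against 774, 818, 786 and 878 CPM in Null DMSO libraries. The Y220C libraries under MS78 thus lay at the level of the p53-null libraries under DMSO, and the Null MS78 libraries lay apart below all others. The log2 fold change was -0.53 (SE 0.05, adjusted p = 2.26e-08) in Y220C and -1.13 (SE 0.05, adjusted p = 5.18e-13) in p53-null cells, and the difference was 0.60 (SE 0.07, adjusted p = 2.65e-06).

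Of the enzymes of proline and alanine synthesis, ALDH18A1 makes the first proline intermediate from glutamate, PYCR1 completes proline in mitochondria, and GPT2 is the mitochondrial alanine aminotransferase. ALDH18A1 moved in opposite directions. It had 109, 104, 108 and 108 CPM in Y220C MS78, against 90.0, 84.6, 82.0 and 81.1 CPM in Y220C DMSO, and 66.9, 66.7, 66.7 and 69.4 CPM in Null MS78, against 76.4, 74.3, 72.4 and 71.7 CPM in Null DMSO. All Y220C MS78 libraries lay above their DMSO group and all Null MS78 libraries lay below theirs. The rise in Y220C was 0.35 (SE 0.04, adjusted p = 2.03e-07). The fall in p53-null cells was small, at -0.13 (SE 0.04, adjusted p = 0.0163). It did not pass without Null DMSO replicate 1 (-0.11, adjusted p = 0.0733) or with counts scaled for transcript length (-0.11, adjusted p = 0.195). Within the libraries without PTPRC reads it was -0.12 and was not called. The difference was 0.48 (SE 0.05, adjusted p = 1.8e-06).

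PYCR1 fell in both lines, by 0.26 in Y220C and by 0.57 in p53-null cells on the log2 scale (difference 0.31, SE 0.06, adjusted p = 0.000773). GPT2 fell by 0.29 and by 0.55. Its difference of 0.26 (SE 0.09, adjusted p = 0.0369) was lost when any of 9 libraries was left out, with values of 0.19 to 0.26 and adjusted p between 0.0548 and 0.0851. These were replicates 1 and 3 of Y220C MS78, 3 and 4 of Y220C DMSO, 1, 2 and 4 of Null MS78 and 1 and 2 of Null DMSO. With counts scaled for transcript length the GPT2 difference was 0.30 (adjusted p = 0.338). It was 0.13 among the libraries with PTPRC reads and 0.40 in the rest.

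Transsulfuration turns homocysteine into cysteine through CBS and then CTH. CTH rose in Y220C cells and CBS fell in both lines. CTH (ENSG00000116761, chromosome 1, 70411218 to 70439851) had 15.9, 16.6, 16.1 and 13.9 CPM in Y220C MS78, against 9.51, 10.3, 9.95 and 10.6 CPM in Y220C DMSO. It had 9.88, 9.68, 10.2 and 10.4 CPM in Null MS78, against 9.35, 9.14, 9.91 and 9.77 CPM in Null DMSO. The Y220C MS78 libraries stood above the 12 others, which lay within 9.14 to 10.6 CPM. The log2 fold change was 0.63 (SE 0.07, adjusted p = 1.71e-07) in Y220C and 0.07 (SE 0.07, adjusted p = 0.497) in p53-null cells, with a difference of 0.56 (SE 0.10, adjusted p = 0.000241).

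CBS averaged 115 ± 1.5 CPM in Y220C MS78 and 181 ± 5.8 CPM in Y220C DMSO, and 106 ± 0.86 CPM in Null MS78 and 165 ± 4.0 CPM in Null DMSO (SD, n = 4 each). The falls of -0.65 and -0.64 (SE 0.03 each) differed by -0.01 (SE 0.05, adjusted p = 0.901). A near-identical copy of CBS exists in the annotation, so its level is uncertain. Within a library, the ratio of CTH to CBS in TPM, which allows for length, was 0.202 ± 0.011 in Y220C MS78 and 0.0819 ± 0.0053 in Y220C DMSO. It was 0.141 ± 0.0069 in Null MS78 and 0.0863 ± 0.0047 in Null DMSO.

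Several carriers of the SLC7 family work as pairs, in which a light chain that moves the amino acid is held at the membrane by the heavy chain SLC3A2. SLC7A11 is the light chain that imports cystine in exchange for glutamate. SLC7A11 (ENSG00000151012, chromosome 4, 138164097 to 138242349, minus strand) had 88.2, 92.7, 95.7 and 98.7 CPM in Y220C MS78, against 82.4, 73.8, 89.0 and 90.7 CPM in Y220C DMSO, where the groups overlapped. It had 57.7, 46.3, 53.2 and 47.6 CPM in Null MS78, against 113, 117, 107 and 115 CPM in Null DMSO, where every MS78 library lay below every DMSO library. In Y220C cells the log2 fold change was 0.16 (SE 0.07, adjusted p = 0.0526). That value passed without Y220C MS78 replicate 1 (0.19, adjusted p = 0.0353), without Y220C DMSO replicate 3 (0.19, adjusted p = 0.0365) and without Y220C DMSO replicate 4 (0.20, adjusted p = 0.023). It also passed with DESeq2 (adjusted p = 0.0323), RLE size factors (0.0468), no filter (0.0187), a term for PTPRC reads (0.0451) and among the libraries with PTPRC reads (0.0298), but not among the rest (0.06, adjusted p = 0.732). In p53-null cells it was -1.14 (SE 0.07, adjusted p = 3.5e-11). The difference of 1.30 (SE 0.09, adjusted p = 2.98e-09), a 2.46-fold difference of the fold changes, was the largest of the 33, and was 1.44 among the libraries with PTPRC reads and 1.03 in the rest.

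SLC3A2 itself (ENSG00000168003, chromosome 11, 62856102 to 62888875) had 434, 416, 429.8 and 441 CPM in Y220C MS78, against 387, 409, 352 and 345 CPM in Y220C DMSO. It had 235, 237, 254 and 260.0 CPM in Null MS78, against 436, 462, 399.8 and 385 CPM in Null DMSO. The rise of 0.20 (SE 0.06, adjusted p = 0.00537) in Y220C cells was called in neither library set, at 0.15 (adjusted p = 0.0549) with PTPRC reads and 0.24 (adjusted p = 0.165) without. The fall of -0.77 (SE 0.06, adjusted p = 1.37e-09) in p53-null cells and the difference of 0.98 (SE 0.08, adjusted p = 2.49e-08) were called in both.

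SLC7A5, the light chain that imports leucine and other large neutral amino acids, fell in both lines. It had 395, 398, 378 and 401 CPM in Y220C MS78, against 610.1, 653, 612 and 613 CPM in Y220C DMSO. It had 436, 434, 431 and 439 CPM in Null MS78, against 845, 861, 718 and 761 CPM in Null DMSO. The 8 MS78 libraries were thus within 378 to 439 CPM in both lines, and all DMSO libraries were above them. The log2 fold changes were -0.66 and -0.87 (SE 0.05 each). Their difference of 0.21 (SE 0.06, adjusted p = 0.0192) did not pass without Null DMSO replicate 1 (0.18, adjusted p = 0.0514).

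The ratio of SLC7A5 to SLC3A2 in TPM was 0.312 ± 0.012 in Y220C MS78, with all 4 libraries between 0.299 and 0.328, and 0.586 ± 0.039 in Y220C DMSO. In p53-null cells it was 0.636 ± 0.033 under MS78 and 0.682 ± 0.022 under DMSO. The light chain for large neutral amino acids was therefore lowest relative to its heavy chain in Y220C MS78 libraries. The ratio of SLC7A11 to SLC3A2 was 0.0357 ± 0.0026 in Y220C MS78 and 0.0368 ± 0.0072 in Y220C DMSO, and 0.0337 ± 0.0043 in Null MS78 and 0.0439 ± 0.0032 in Null DMSO. These ratios are of RNA, are given without a test, and do not measure the assembled carriers.

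**Figure D2:**
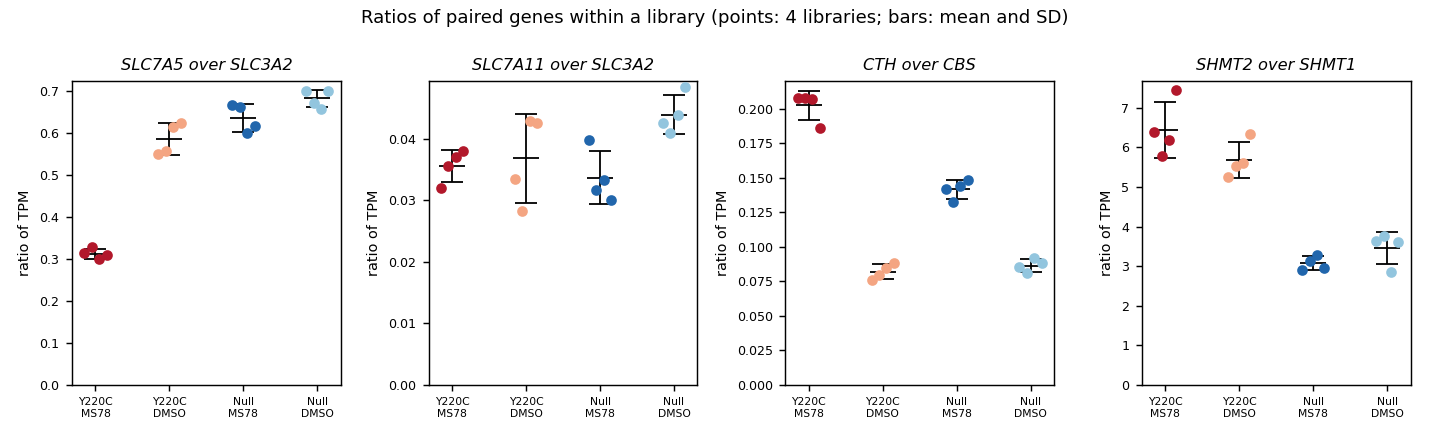
Ratios of the TPM of paired genes within each library (y axes) in the 4 groups (x axes), with 4 points per group and bars for the mean and SD. The SLC7A5 to SLC3A2 ratio lies between 0.299 and 0.328 in Y220C MS78 libraries and at 0.55 or above in all others, and the CTH to CBS ratio is highest in Y220C MS78 libraries.

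SLC7A1 imports arginine and lysine without a heavy chain, SLC7A6 is a light chain that exchanges cationic for neutral amino acids, and SLC43A1 carries large neutral amino acids. In Y220C cells the log2 fold change of SLC7A1 was 0.11 (SE 0.05, adjusted p = 0.117), and it was called within the libraries with PTPRC reads (0.21, adjusted p = 0.0273) but not within those without (0.01, adjusted p = 0.938). In p53-null cells SLC7A1 fell by 0.50 (SE 0.05, adjusted p = 4.76e-07). SLC7A6 rose by 0.34 (SE 0.06, adjusted p = 6.65e-05) in Y220C cells and stood at -0.02 (adjusted p = 0.82) in p53-null cells. Its rise in Y220C was 0.54 where PTPRC had reads and 0.17, not called, where it had 0 or 1. The SLC7A6 difference of 0.36 (SE 0.08, adjusted p = 0.00276) became 0.54 (adjusted p = 0.169) with counts scaled for transcript length. It was 0.16 and not called where PTPRC had 0 or 1 reads. A retained-intron transcript held 23.1% ± 17 of SLC7A6 TPM in Y220C MS78, 17% ± 14 in Y220C DMSO, 11.2% ± 13 in Null MS78 and 0% in Null DMSO. SLC43A1 was the least abundant of the 33, at 3.00 ± 0.28 CPM in Y220C MS78 and 4.27 ± 0.45 CPM in Y220C DMSO, and 1.65 ± 0.26 CPM in Null MS78 and 2.54 ± 0.38 CPM in Null DMSO (31 to 109 reads per library). It fell by 0.51 (SE 0.15) in Y220C and by 0.62 (SE 0.16) in p53-null cells. The fall in Y220C was called neither with PTPRC reads (-0.63, adjusted p = 0.0677) nor without (-0.44, adjusted p = 0.248), and that in p53-null cells was not called without (adjusted p = 0.397).

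Sodium-coupled carriers concentrate small neutral amino acids in the cell. SLC38A2, which takes up glutamine and alanine, was the most abundant carrier of the set per length in Y220C cells, at 457 ± 14 TPM under MS78 and 348 ± 22 TPM under DMSO. SLC38A2 (ENSG00000134294, chromosome 12, 46358189 to 46372867, minus strand) had 1731, 1720.2, 1769 and 1679 CPM in Y220C MS78, against 1211, 1194, 1289 and 1317 CPM in Y220C DMSO. It had 1022, 938, 982 and 1002 CPM in Null MS78, against 989, 976, 1024 and 1016 CPM in Null DMSO. The MS78 libraries were all higher in Y220C cells, and the groups overlapped in p53-null cells. The log2 fold change was 0.46 (SE 0.04, adjusted p = 8.96e-10) in Y220C and -0.02 (SE 0.04, adjusted p = 0.7) in p53-null cells, with a difference of 0.48 (SE 0.05, adjusted p = 4.5e-07).

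SLC38A1, encoded close by on chromosome 12 and also a carrier of glutamine, rose in Y220C cells and fell in p53-null cells. SLC38A1 had 838, 885, 915 and 875 CPM in Y220C MS78, against 678, 638, 735 and 730.1 CPM in Y220C DMSO. It had 396, 371, 379.5 and 352 CPM in Null MS78, against 469, 454, 429 and 465 CPM in Null DMSO. Neither line had an overlap between its groups. The rise in Y220C was 0.34 (SE 0.05, adjusted p = 3.67e-06), the fall in p53-null cells was -0.28 (SE 0.05, adjusted p = 9.73e-05) and the difference was 0.61 (SE 0.07, adjusted p = 6.72e-07). Within the libraries without PTPRC reads the fall was -0.19 (adjusted p = 0.261) and the difference 0.45 (adjusted p = 0.0781).

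SLC1A5, the main glutamine exchanger, and SLC1A4, which exchanges serine, alanine and cysteine, fell in p53-null cells. SLC1A5 averaged 194 ± 9.0 CPM in Y220C MS78 and 194 ± 6.9 CPM in Y220C DMSO, and 159 ± 6.3 CPM in Null MS78 and 242 ± 13 CPM in Null DMSO (SD, n = 4 each). Its log2 fold changes were 0.00 (SE 0.04, adjusted p = 0.963) in Y220C and -0.61 (SE 0.04, adjusted p = 8.51e-10) in p53-null cells, a difference of 0.61 (SE 0.06). SLC1A4 was at -0.10 (SE 0.04, adjusted p = 0.0764) in Y220C and -0.74 (SE 0.04, adjusted p = 5.44e-11) in p53-null cells, a difference of 0.64 (SE 0.06). Both differences were called in both library sets. SLC6A9, a glycine carrier with 121 to 311 reads per library, fell by 0.48 (SE 0.13, adjusted p = 0.00311) in Y220C cells. In p53-null cells it had the largest fall of the 33, at -1.20 (SE 0.13, adjusted p = 2.43e-07). The fall in Y220C was called in neither library set, with PTPRC reads (adjusted p = 0.177) or without (adjusted p = 0.0893), nor was the difference (adjusted p = 0.0698 and 0.156). With gene counts scaled for transcript length the difference of 0.71 (adjusted p = 0.00507) became 0.54 (adjusted p = 0.125).

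**Figure D3:**
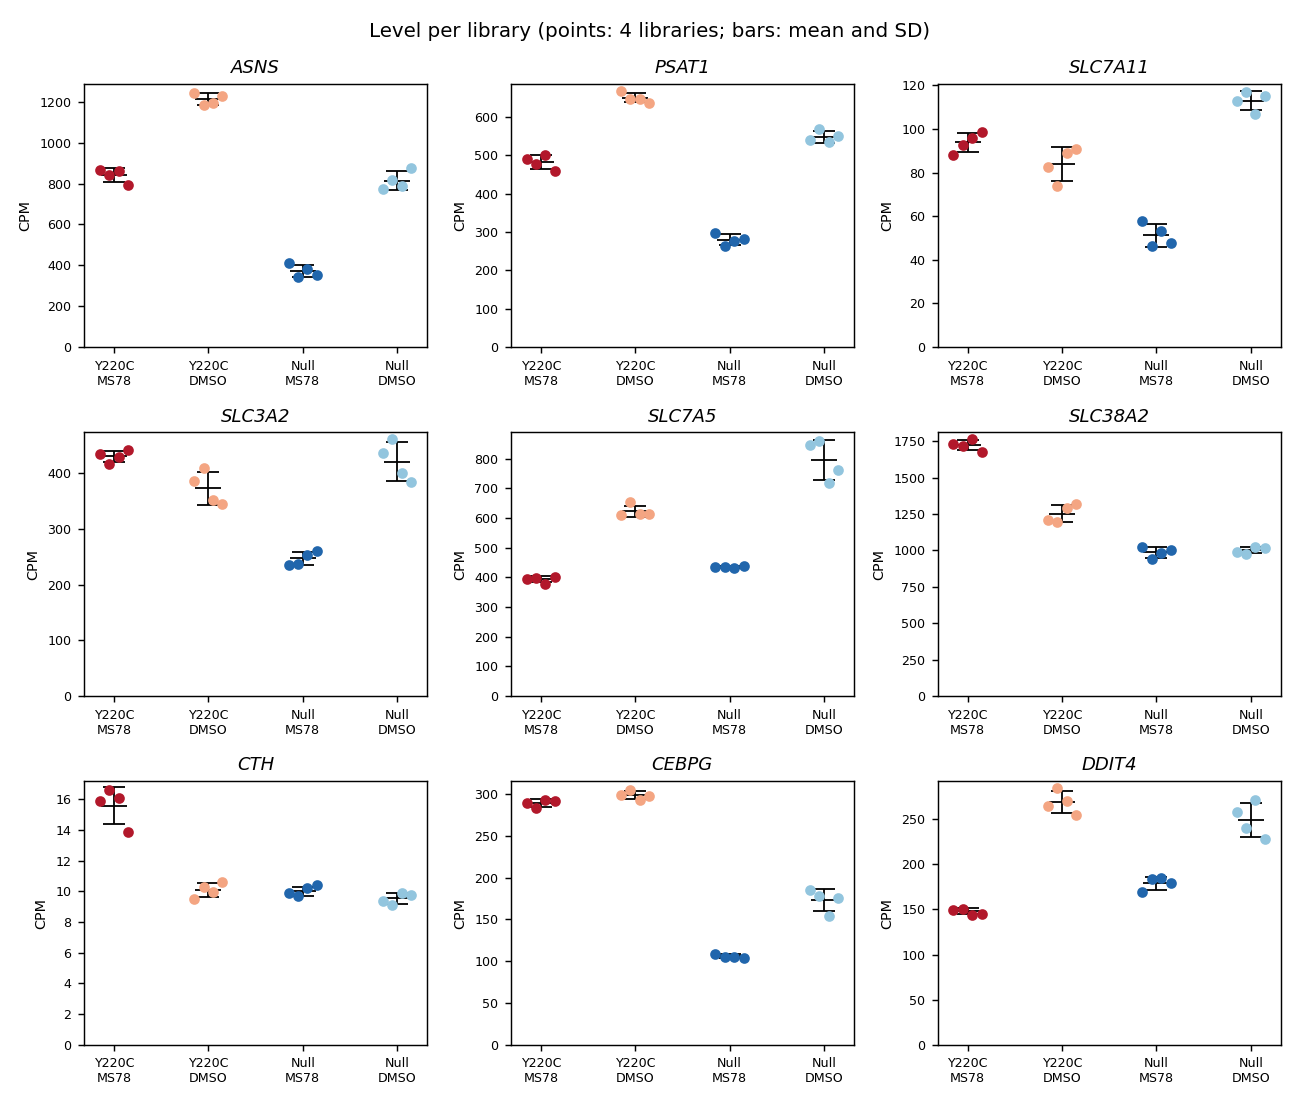
Level of 9 of the genes in CPM (y axes, from 0) in the 4 groups (x axes), with 1 point per library and bars for the mean and SD. In the SLC7A11, SLC3A2 and PSAT1 panels the Null MS78 libraries lie lowest, in the CTH and SLC38A2 panels the Y220C MS78 libraries lie highest, and in the DDIT4 panel the Y220C MS78 libraries lie lowest.

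The 8 remaining genes are ATF4 targets outside amino acid metabolism. CEBPG encodes a C/EBP partner of ATF4. CEBPG (ENSG00000153879, chromosome 19, 33373330 to 33382686) had 289, 283, 293 and 291 CPM in Y220C MS78, against 299, 305, 293 and 298 CPM in Y220C DMSO. It had 109, 105, 105 and 104 CPM in Null MS78, against 185, 178, 154 and 176 CPM in Null DMSO. The Null MS78 libraries lay below the 12 others. Its log2 fold change was -0.05 (SE 0.04, adjusted p = 0.358) in Y220C cells and -0.71 (SE 0.04, adjusted p = 7.24e-11) in p53-null cells, a difference of 0.66 (SE 0.06, adjusted p = 9.89e-08).

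STC2, a secreted glycoprotein, averaged 43.5 ± 1.1 CPM in Y220C MS78 and 50.0 ± 1.3 CPM in Y220C DMSO, and 28.2 ± 2.7 CPM in Null MS78 and 58.0 ± 4.4 CPM in Null DMSO. In Y220C cells its log2 fold change of -0.20 (adjusted p = 0.0087) became 0.07 (adjusted p = 0.763) when counts were scaled for transcript length, and was called in neither library set. It fell by 1.05 (SE 0.06) in p53-null cells, and the difference between the lines was 0.85 (SE 0.08, adjusted p = 3.13e-07). A retained-intron transcript held much of the TPM of STC2, at 54.2% ± 3.9 in Y220C MS78, 43.4% ± 11 in Y220C DMSO, 47.8% ± 17 in Null MS78 and 46% ± 9.7 in Null DMSO. JDP2, a repressor that pairs with AP-1 factors, was at -0.18 (adjusted p = 0.0335) in Y220C cells. That call was lost without Y220C MS78 replicate 3 (-0.15, adjusted p = 0.103) or 4 (-0.17, adjusted p = 0.0635). It was also lost without Y220C DMSO replicate 2 (-0.13, adjusted p = 0.124), 3 (-0.18, adjusted p = 0.0507) or 4 (-0.17, adjusted p = 0.0626), and within both library sets. Nor did it pass with DESeq2 (adjusted p = 0.0567), no filter (0.0514), length-scaled TPM (0.123) or a term for PTPRC reads (0.0952). In p53-null cells JDP2 fell by 0.81 (SE 0.07).

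XPOT, the exportin that carries tRNA out of the nucleus, fell by 0.15 in Y220C and by 0.47 in p53-null cells (SE 0.04 each), a difference of 0.32 (SE 0.06, adjusted p = 0.000855). Its fall in Y220C was called neither with length-scaled TPM (-0.12, adjusted p = 0.118) nor among the libraries with PTPRC reads (adjusted p = 0.0721) or the rest (adjusted p = 0.181), and the difference was not called in the rest (adjusted p = 0.459). VLDLR, a lipoprotein receptor, was at 0.10 (SE 0.04, adjusted p = 0.0444) in Y220C and -0.06 (SE 0.04, adjusted p = 0.332) in p53-null cells. Its rise in Y220C was 0.09 to 0.11 with adjusted p between 0.0661 and 0.111 when 1 of 6 libraries was left out, these being replicates 2, 3 and 4 of Y220C MS78 and 1, 2 and 3 of Y220C DMSO, and neither library set called it. Its difference of 0.16 (adjusted p = 0.0458) was 0.14 to 0.17 with adjusted p between 0.0611 and 0.0967 without any of 11 libraries, replicates 2, 3 and 4 of Y220C MS78, 1, 2 and 3 of Y220C DMSO, 1, 3 and 4 of Null MS78, and 3 and 4 of Null DMSO. With DESeq2 neither the rise (adjusted p = 0.0714) nor the difference (adjusted p = 0.0751) was called. KLHL24, a substrate adaptor of a ubiquitin ligase, rose in both lines, with means of 81.2 ± 1.4 CPM in Y220C MS78 and 56.8 ± 2.9 CPM in Y220C DMSO, and of 61.5 ± 1.3 CPM in Null MS78 and 39.0 ± 1.6 CPM in Null DMSO (SD, n = 4 each). All MS78 libraries lay above the DMSO libraries of their line. Its log2 fold changes were 0.51 and 0.66 (SE 0.04 each), and the difference of -0.14 (adjusted p = 0.0825) passed without Y220C DMSO replicate 1 (-0.17, adjusted p = 0.0324).

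DDIT4 and EIF4EBP1 encode inhibitors of mTORC1 signalling and of cap-dependent translation, and they fell further in Y220C than in p53-null cells. DDIT4 (ENSG00000168209, chromosome 10, 72273920 to 72276036) had 149, 151, 144 and 145 CPM in Y220C MS78, against 265, 285, 269.9 and 255 CPM in Y220C DMSO. It had 169, 184, 185 and 179 CPM in Null MS78, against 258, 240.1, 271 and 228 CPM in Null DMSO. The MS78 libraries of each line lay below its DMSO libraries, and the Y220C MS78 libraries lay lowest of all. The log2 fold changes of -0.87 and -0.47 (SE 0.05 each) differed by -0.39 (SE 0.07, adjusted p = 0.000271). EIF4EBP1 was at -0.66 in Y220C and -0.46 in p53-null cells (SE 0.05 each). Its difference of -0.20 (SE 0.07, adjusted p = 0.0324) was -0.15 to -0.19 with adjusted p between 0.0543 and 0.0742 without any of 7 libraries, replicates 3 and 4 of Y220C MS78, 2 of Y220C DMSO, 3 and 4 of Null MS78, and 3 and 4 of Null DMSO. The EIF4EBP1 difference shrank to -0.13 among the libraries with PTPRC reads and to -0.17 in the rest, and was called in neither. That of DDIT4 shrank to -0.31 in the rest and was not called there.

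The lines were also compared under each treatment, which gives the levels behind these responses. Under MS78, 28 of the 33 genes were higher in Y220C than in p53-null cells and 3, SHMT1, SLC7A5 and DDIT4, were lower, against 30.7% and 31.2% of all genes tested (median 0.61 for the 33 and -0.01 for all genes). CEBPG stood 2.73-fold higher (log2 1.45, SE 0.04, adjusted p = 2.29e-16), ALDH1L2 2.37-fold (1.24, SE 0.13), SLC38A1 2.34-fold (1.23, SE 0.05) and ASNS 2.26-fold higher (1.18, SE 0.05, adjusted p = 7.13e-14) in Y220C MS78. GPT2 at -0.10 (adjusted p = 0.206) and EIF4EBP1 at -0.04 (adjusted p = 0.461) did not pass. PSPH at 0.11 (adjusted p = 0.0362) was called in the full comparison but was 0.09 to 0.11 with adjusted p between 0.0741 and 0.109 without Y220C MS78 replicate 1 or 3 or Null MS78 replicate 2, 3 or 4. Among the libraries with PTPRC reads all 31 calls held, and 20 held in the rest.

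Under DMSO, without MS78, 18 of the 33 were higher and 9 lower in Y220C than in p53-null cells, against 24.7% and 25.5% of all genes tested (median 0.14 for the 33 and 0.00 for all genes). The 9 lower genes were SHMT1, PYCR1, GPT2, SLC7A11, SLC7A5, SLC3A2, SLC1A5, SLC1A4 and STC2. Their number is near the 25.5% of all genes and is not read as a result about the set. Among the libraries with PTPRC reads, 1 per line under DMSO, the median of the 33 was 0.12, and in the rest it was 0.14. All 27 calls kept their sign in both library sets, but PYCR1, CBS, SLC3A2 and VLDLR were called in neither. JDP2, SLC43A1 and EIF4EBP1 were not called among the libraries with PTPRC reads, nor was STC2 in the rest. SLC7A11 averaged 93.8 ± 4.5 CPM in Y220C MS78 and 51.2 ± 5.3 CPM in Null MS78 (log2 0.87, SE 0.07, adjusted p = 6.53e-10), and 84.0 ± 7.7 CPM in Y220C DMSO and 113 ± 4.2 CPM in Null DMSO (log2 -0.43, SE 0.06, adjusted p = 1.48e-05). SLC3A2, SLC1A5, SLC1A4, STC2 and PYCR1 were likewise called higher in Y220C under MS78 and lower in Y220C under DMSO. With length-scaled TPM the DMSO calls of STC2 (-0.26, adjusted p = 0.216) and SLC3A2 (-0.15, adjusted p = 0.0771) were lost. Those of SLC3A2 and PYCR1 also depended on single libraries, as given below. SLC1A5 was at 0.29 under MS78 and -0.32 under DMSO, and SLC1A4 at 0.33 under MS78 and -0.31 under DMSO.

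Several results between the lines under DMSO changed side of the threshold when single libraries were left out. PYCR1 at -0.11 (adjusted p = 0.0311) was -0.09 to -0.11 with adjusted p between 0.0719 and 0.104 without Y220C DMSO replicate 3 or 4 or Null DMSO replicate 1 or 2. SLC3A2 at -0.17 (adjusted p = 0.0158) was -0.12 to -0.15 with adjusted p between 0.0556 and 0.0809 without any of the same 4 libraries. VLDLR at 0.11 (adjusted p = 0.0269) was 0.10 with adjusted p between 0.0655 and 0.0816 without Y220C DMSO replicate 4 or Null DMSO replicate 1 or 2. DDIT4 at 0.11 (adjusted p = 0.0649) passed without Y220C DMSO replicate 4 (0.14, adjusted p = 0.0303) or Null DMSO replicate 3 (0.15, adjusted p = 0.0128), and SLC6A9 at -0.20 (adjusted p = 0.163) passed without Y220C DMSO replicate 3 (-0.30, adjusted p = 0.0441).

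**Figure D4:**
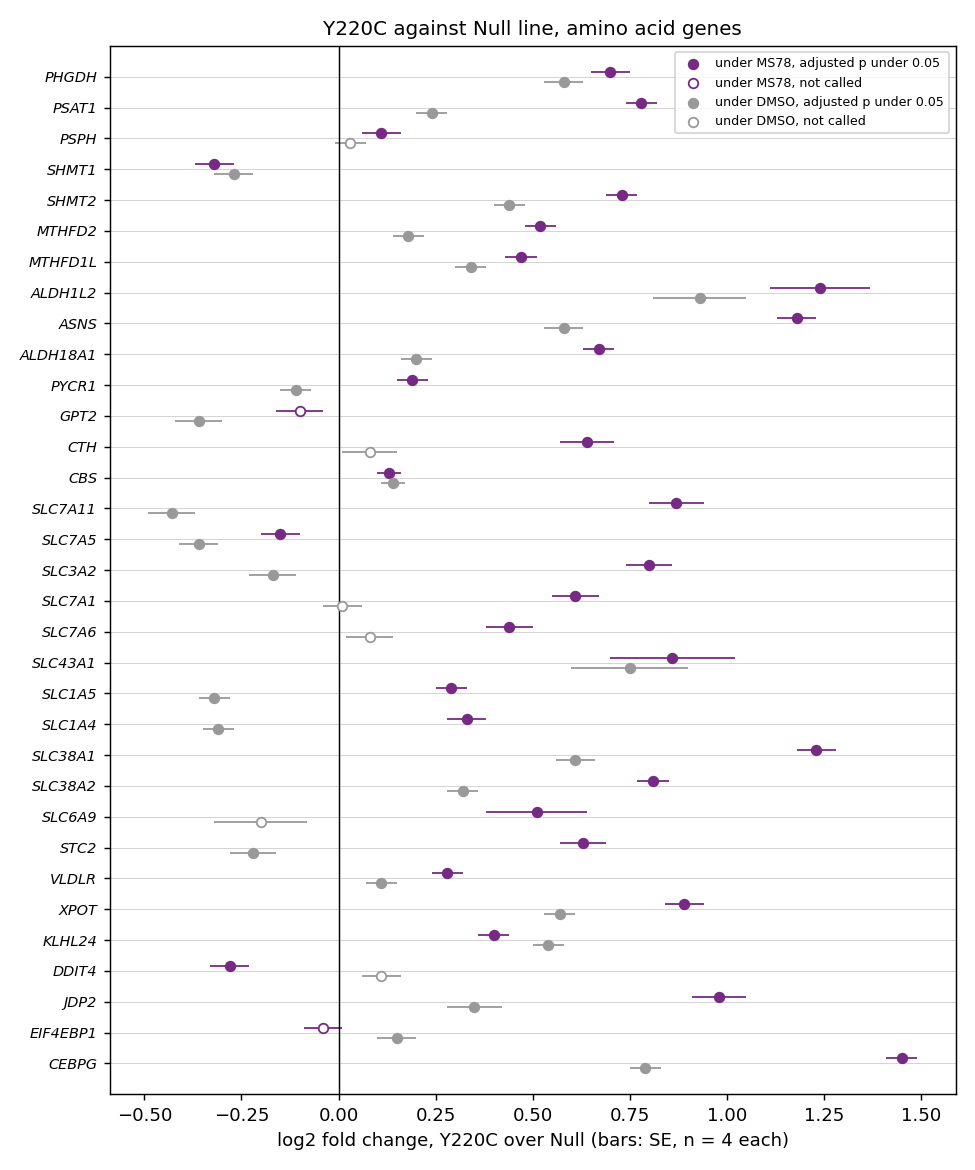
Log2 fold change of Y220C over p53-null cells (x axis) for the 33 genes (y axis, by role) under MS78 in purple and under DMSO in grey, with bars for the SE (n = 4 libraries each). Filled points passed an adjusted p of 0.05. CEBPG at 1.45 under MS78 is the point farthest to the right, and SLC7A11, SLC3A2, SLC1A5, SLC1A4, STC2 and PYCR1 lie right of 0 under MS78 and left of 0 under DMSO.

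The mitochondrial serine hydroxymethyltransferase gene was higher relative to the cytosolic one in Y220C than in p53-null libraries. The ratio of SHMT2 to SHMT1 in TPM was 6.45 ± 0.71 in Y220C MS78 and 5.68 ± 0.46 in Y220C DMSO, and 3.07 ± 0.18 in Null MS78 and 3.46 ± 0.41 in Null DMSO. All Y220C libraries, at 5.25 or above, exceeded all p53-null libraries, at 3.75 or below. A processed transcript, not annotated as protein-coding, held 37% ± 4.2 of SHMT2 TPM in Y220C MS78 and 34.6% ± 7 in Y220C DMSO. Its share was 27.7% ± 4.8 in Null MS78 and 27% ± 4.3 in Null DMSO, and its part in the ratio was not tested. SHMT1 was lower in Y220C cells under MS78 (-0.32, SE 0.05, adjusted p = 1.84e-05) and under DMSO (-0.27, SE 0.05, adjusted p = 0.00013), while SHMT2 was higher (0.73 and 0.44, SE 0.04 each).

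ATF4 and other regulators of the integrated stress response were followed beside these genes. ATF4 averaged 444 ± 15 CPM in Y220C MS78 and 388 ± 9.6 CPM in Y220C DMSO, and 336 ± 14 CPM in Null MS78 and 419.9 ± 12 CPM in Null DMSO. Its log2 fold change was 0.19 (SE 0.04, adjusted p = 0.00017) in Y220C and -0.32 (SE 0.04, adjusted p = 6.73e-07) in p53-null cells, a difference of 0.51 (SE 0.05, adjusted p = 3.15e-07). ATF4 protein, which is set mainly by translation, was not measured here. Of the 16 regulators 10 rose and 1 fell in Y220C cells, against 24.9% and 23.6% of all genes tested. In p53-null cells 3 rose, near the 14.8% of all genes, and 8 fell, against 13.3%. The response was higher in Y220C for 12 and lower for 2, against 14.4% and 12.4%. DDIT3, the pro-apoptotic partner of C/EBP factors, averaged 161 ± 9.0 CPM in Y220C MS78 and 75.8 ± 4.7 CPM in Y220C DMSO, and 28.8 ± 1.7 CPM in Null MS78 and 46.3 ± 5.5 CPM in Null DMSO. In Y220C cells DDIT3, ATF3 and PPP1R15A, the phosphatase subunit that reverses eIF2 phosphorylation, rose by 1.09, 2.29 and 1.63 on the log2 scale. Of the 33 genes 20 fell there, ASNS, PSAT1 and PHGDH among them, and 8 rose, SLC38A2, SLC38A1 and CTH among them. The shares of all genes tested were 23.6% and 24.9%. Between the lines 14 of the 16 were higher and 0 lower in Y220C under MS78, against 30.7% and 31.2% of all genes, and 9 were higher and 3 lower under DMSO, against 24.7% and 25.5%.

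Other enzymes and carriers of the same pathways were counted in the same way. Of 30 further enzymes of amino acid synthesis and one-carbon metabolism 27 were tested, of which 5 rose and 13 fell in Y220C cells (median -0.12), against 24.9% and 23.6% of all genes tested. In p53-null cells 5 rose and 10 fell (median -0.07), against 14.8% and 13.3%. TYMS, which makes thymidylate, was among those that fell in both. TYMS averaged 76.7 ± 3.0 CPM in Y220C MS78 and 169 ± 8.5 CPM in Y220C DMSO, and 167 ± 2.2 CPM in Null MS78 and 247 ± 10 CPM in Null DMSO. The response was higher in Y220C for 4 of the 27, among them the mitochondrial folate carrier SLC25A32 (0.48, SE 0.07), and lower for 7, among them TYMS (-0.57, SE 0.06) and PYCR3 (-0.60, SE 0.12), against 14.4% and 12.4% of all genes. Y220C cells had 10 of the 27 higher and 11 lower under MS78, against 30.7% and 31.2% of all genes, and 11 higher and 8 lower under DMSO, against 24.7% and 25.5%. The 4 higher differences are at the share over all genes and say nothing particular of these enzymes.

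Of 25 further carriers 19 were tested, of which 9 rose and 2 fell in Y220C cells (median 0.22), against 24.9% and 23.6% of all genes tested. In p53-null cells 6 rose and 1 fell (median 0.04), against 14.8% and 13.3%. SLC36A1, a lysosomal amino acid exporter, rose in both, at 30.5 ± 2.7 CPM in Y220C MS78 and 21.5 ± 1.9 CPM in Y220C DMSO, and at 22.2 ± 0.83 CPM in Null MS78 and 17.4 ± 0.82 CPM in Null DMSO. SLC6A6, the taurine carrier, rose by 0.44 (SE 0.05, adjusted p = 1.11e-07) in Y220C cells. The response was higher in Y220C for 4 carriers and lower for 2, SLC43A2 among them (-0.42, SE 0.11, adjusted p = 0.00677), against 14.4% and 12.4% of all genes. Y220C cells had 6 of the 19 higher and 5 lower under MS78, against 30.7% and 31.2%, and 5 higher and 7 lower under DMSO, against 24.7% and 25.5%. With 19 carriers, these counts of differences and between the lines are not read as a result about the list.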

How the data were processed

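RNA-seq of 16 libraries was analysed from the deposited transcript tables, which have the columns of Salmon output. The authors' estimated counts of each transcript are fractional and not normalized, per the file headers. Per the headers, too, the deposited TPM had been scaled by the authors for effective length and library size, and other columns hold that length. FastQC 0.11.8 and the build hg38 are named in the submitters' processing notes. The sources used here do not give the quantifier's version, its annotation or its use of strand.

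Of 197653 transcripts, 193348 (97.82%) matched GENCODE 29 (GRCh38), and their estimated counts were summed into 56865 genes and rounded. Unmatched transcripts, 0.278% to 0.325% of reads, were left out. Genes were tested with edgeR 4.0.16 (R 4.3.3; filterByExpr, TMM, quasi-likelihood F-test) in 1 fit of 16 libraries with 4 group means and 12 residual degrees of freedom. The p-values were adjusted by Benjamini-Hochberg over all 15687 genes tested in each of 5 comparisons, with a threshold of 0.05. CPM use TMM-scaled totals, gene TPM is the sum over transcripts, and SE is the size of the log2 fold change over the square root of F. At these depths a gene with 0 reads could hold up to 3, and such floors cover counting error only.

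All 33 genes are named. Of 3 further lists (other enzymes, other carriers, stress regulators) counts are given, with at most 4 members each, ranked by size of change among those past the threshold at 1 CPM or more, and ATF4. SLC6A6, SLC25A32, SLC36A1 and SLC43A2 come from that rule, and some genes that it takes are not reported here. The genes, lists and tests were chosen with earlier results of these data known. The labels do not say that replicate numbers pair libraries. Between the lines, the correlations of same-numbered libraries were 0.53, 0.15, 0.20 and 0.17 under MS78 and 0.45, 0.17, -0.06 and 0.15 under DMSO. In each group replicate 1 differs from replicates 2 to 4 in leukocyte reads, so a shared number and these reads cannot be told apart there. Alternatives were other size factors, DESeq2 1.42.0, other filters, length-scaled TPM, fewer groups, a replicate block, a term or a split for PTPRC reads, and leaving out each library.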

Additional observations from a re-analysis of the deposited data

Results flagged for a closer look

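Of 132 groups of 4 libraries (33 genes in 4 groups), 6 held a library apart from the others by Dixon's criterion, which chance alone meets in about 1 in 20 groups. ALDH18A1 had 104 CPM in Y220C MS78 replicate 2, where the others had 108 to 109 CPM, and 69.4 CPM in Null MS78 replicate 4, where the others had 66.7 to 66.9 CPM. SLC7A5 had 653 CPM in Y220C DMSO replicate 2 (others 610.1 to 613 CPM), SLC1A5 had 183 CPM in Y220C DMSO replicate 4 (others 197 CPM), and SLC6A9 had 13.1 CPM in Y220C DMSO replicate 3 (others 10.0 to 10.2 CPM). SHMT1 had 71.9 CPM in Null DMSO replicate 2, where the others had 64.1 to 64.9 CPM.

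The response to MS78 differed between Y220C and p53-null cells, by the edgeR test of the difference itself, for 25 genes. On the log2 scale (Y220C minus Null), the enzymes differed by 0.54 for PSAT1, 0.29 for SHMT2, 0.34 for MTHFD2, 0.60 for ASNS, 0.48 for ALDH18A1, 0.31 for PYCR1, 0.26 for GPT2 and 0.56 for CTH. The carriers and their heavy chain differed by 1.30 for SLC7A11, 0.98 for SLC3A2, 0.21 for SLC7A5, 0.60 for SLC7A1, 0.36 for SLC7A6, 0.61 for SLC1A5, 0.64 for SLC1A4, 0.61 for SLC38A1, 0.48 for SLC38A2 and 0.71 for SLC6A9. The other ATF4 targets differed by 0.85 for STC2, 0.16 for VLDLR, 0.32 for XPOT, 0.63 for JDP2, 0.66 for CEBPG, -0.39 for DDIT4 and -0.20 for EIF4EBP1.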

How the results depend on the processing

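Of 3201 values recomputed for single genes, 3031 stayed on the same side of the threshold with no called value changing sign, while values that were not called could cross 0. Of the others 153 lost a call, 16 gained one and 1 called value changed sign. That value was STC2 in Y220C cells, at 0.07 with length-scaled TPM, and the cause was not tested. Within the 8 libraries with fewer than 10 PTPRC reads, 5 of the 33 genes rose and 10 fell in Y220C cells. There the difference of responses was higher for 10 and lower for 0, and 0 were lower in Y220C than in p53-null cells under MS78. Within the libraries with more PTPRC reads, 1 difference of responses was lower. These sets hold fewer libraries, with 1 per line in 1 treatment, whose spread is assumed to be that of the other groups. Leaving out 1 library gave 7 to 9 genes higher and 19 to 20 lower in Y220C cells, 1 higher and 27 to 28 lower in p53-null cells, 21 to 23 higher and 1 to 3 lower differences, 27 to 28 higher and 3 lower between the lines under MS78, and 17 to 19 higher and 7 to 9 lower under DMSO. Other scalings moved the median of all genes by at most 0.005 on the log2 scale. Same-numbered MS78 and DMSO libraries of a line had correlations as low as -0.50, so the numbers are not read as pairs. With the replicate block, all 31 calls between the lines under MS78 remained, as did 27 of 27 under DMSO. The block left 27 of 28 calls in Y220C cells, 29 of 29 in p53-null cells and 24 of 25 differences. The call lost was VLDLR (adjusted p = 0.0579 and 0.0619).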
